A study of Mus musculus with 16 samples.

Results

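The promoters described here are those that lie in the most crowded stretches of the mouse autosomes. Promoters were assayed as HindIII fragments, called baits, and a bait was included when the midpoints of 30 or more other baits lay within 500 kb of its own midpoint. Of 18165 baits listed at any timepoint, 17708 are on autosomes, and 2213 of these met the rule. They are called dense promoters below, and the remaining 15495 autosomal baits are called other promoters. A bait enters the lists only through a listed contact, so every bait counted here had at least 1, and beyond that the rule used positions alone, not how many contacts a bait had, how strong they were or where they ended.

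Promoter Capture Hi-C crosslinks and cuts chromatin, ligates ends that lie close together in the nucleus, and sequences the products that hold a bait. Livers came from wild type male C57BL/6 mice, labelled 8 week old, which per the study's methods were then kept for 2 weeks under 12 h of light and 12 h of dark with food ad libitum. They were taken at ZT0, ZT6, ZT12 and ZT18, hours after lights on, as 3 pools of 2 livers at each timepoint. With a second pool A sample at each timepoint, labelled rep2 and with another lane number, this gives 16 samples. The labels name a single list for all pools of a timepoint, so each timepoint is 1 list of fragment pairs with a CHiCAGO score of at least 5. Values therefore carry no replicate error, and nothing said here of a difference between timepoints has a replicate check. Whole liver holds several cell types, the lists carry no expression values against which the tissue could be checked, and read depth behind the lists was not analysed here.

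Genes are spread unevenly along mouse chromosomes. Gene-rich stretches hold many broadly used genes and also large families that arose by tandem duplication, such as histones, keratins and olfactory receptors. Contacts between fragments fall off with distance along the chromosome, and active gene-rich chromatin is known to lie in the open compartment of the nucleus. A promoter in a crowded stretch therefore has many other promoters within reach, and the comparisons below asked how many of them it contacts and how that differs from promoters elsewhere.

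The dense promoters fell into 58 neighbourhoods on 17 chromosomes, when members were chained as long as the next midpoint lay within 500 kb. The median dense promoter had 36 neighbours, the upper quartile was 42, and the most crowded had 67. The 10 largest neighbourhoods held 930 of the 2213, or 42.0%. The largest, on chromosome 11 from 97841148 to 102327543 of build mm9, held 180 promoters and includes the type I keratin and keratin-associated genes. The next were on chromosome 10 with 108, chromosome 11 with 102 and chromosome 10 with 99. The major histocompatibility complex on chromosome 17 held 79. Chromosome 7 carried 11 neighbourhoods and 472 dense promoters, and chromosome 11 carried 6 neighbourhoods and 388.

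The sequences just before the start of 8 genes of dense promoters show how unlike each other these promoters are. Each is the 250 bases before the annotated start in mm9, on the strand of the gene, and capitals mark CpG dinucleotides. Krtap9-1, a keratin-associated protein gene, had 67 neighbours, the highest number, which 7 other fragments of its neighbourhood share, and its window at chr11:99734453-99734702 (plus strand) holds 1 CpG. Sgta, which encodes a co-chaperone, had 54 neighbours, and its window at chr10:80522924-80523173 (minus strand) holds 16. The histone genes Hist1h2ai (chr13:21808031-21808280, plus strand) and Hist1h2af (chr13:23625525-23625774, plus strand) start on the 2 most contacted histone fragments. Dmkn (chr7:31548525-31548774, plus strand) starts on the second most contacted dense promoter. Per1 (chr11:68908469-68908718, plus strand), Dbp (chr7:52960208-52960457, plus strand) and Nr1d1 (chr11:98636648-98636897, minus strand) are the core clock genes that start on a dense promoter.
Krtap9-1: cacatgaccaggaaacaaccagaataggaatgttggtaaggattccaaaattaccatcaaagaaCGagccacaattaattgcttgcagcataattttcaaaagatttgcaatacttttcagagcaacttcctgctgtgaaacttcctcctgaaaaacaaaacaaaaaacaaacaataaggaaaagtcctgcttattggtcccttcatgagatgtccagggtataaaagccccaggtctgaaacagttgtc
Sgta: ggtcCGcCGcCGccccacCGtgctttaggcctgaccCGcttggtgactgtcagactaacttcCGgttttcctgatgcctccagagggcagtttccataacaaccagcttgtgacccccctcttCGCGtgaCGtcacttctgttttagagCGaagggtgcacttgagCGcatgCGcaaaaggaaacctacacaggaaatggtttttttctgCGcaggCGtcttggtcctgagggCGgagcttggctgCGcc
Hist1h2ai: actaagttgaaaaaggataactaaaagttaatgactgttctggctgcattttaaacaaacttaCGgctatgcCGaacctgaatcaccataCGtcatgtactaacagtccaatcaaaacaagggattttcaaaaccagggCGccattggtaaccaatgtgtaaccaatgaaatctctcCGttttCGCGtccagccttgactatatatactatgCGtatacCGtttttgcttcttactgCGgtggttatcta
Hist1h2af: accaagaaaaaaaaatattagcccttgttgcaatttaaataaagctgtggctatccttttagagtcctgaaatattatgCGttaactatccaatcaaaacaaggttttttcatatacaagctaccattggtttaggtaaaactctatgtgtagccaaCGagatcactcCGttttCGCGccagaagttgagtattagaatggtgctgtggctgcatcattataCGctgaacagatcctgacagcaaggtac
Dmkn: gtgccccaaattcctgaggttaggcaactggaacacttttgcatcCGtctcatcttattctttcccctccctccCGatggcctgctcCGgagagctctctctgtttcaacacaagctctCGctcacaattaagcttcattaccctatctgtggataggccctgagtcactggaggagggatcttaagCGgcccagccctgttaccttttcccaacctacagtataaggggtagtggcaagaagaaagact
Per1: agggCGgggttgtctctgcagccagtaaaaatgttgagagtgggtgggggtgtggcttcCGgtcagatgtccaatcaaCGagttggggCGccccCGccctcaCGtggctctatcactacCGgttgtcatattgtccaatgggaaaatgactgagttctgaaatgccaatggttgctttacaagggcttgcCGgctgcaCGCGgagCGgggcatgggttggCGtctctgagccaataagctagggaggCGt
Dbp: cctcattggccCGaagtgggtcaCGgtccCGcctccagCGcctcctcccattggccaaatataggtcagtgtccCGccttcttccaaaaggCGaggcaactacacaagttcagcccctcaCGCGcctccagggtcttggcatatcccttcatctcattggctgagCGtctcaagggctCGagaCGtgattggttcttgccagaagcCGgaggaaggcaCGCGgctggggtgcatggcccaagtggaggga
Nr1d1: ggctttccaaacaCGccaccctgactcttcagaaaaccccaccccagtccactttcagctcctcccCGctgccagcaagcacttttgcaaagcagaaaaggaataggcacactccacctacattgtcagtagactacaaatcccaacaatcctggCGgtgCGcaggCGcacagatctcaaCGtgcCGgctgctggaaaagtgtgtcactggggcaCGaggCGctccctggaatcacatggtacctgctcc

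Dense promoters had more contacts than other promoters in each list. A contact is a listed interaction counted at each promoter it touches. Dense promoters had means of 14.1 (SD over promoters 16.3, n = 2213), 13.8, 14.7 and 14.8 contacts in the lists of ZT0, ZT6, ZT12 and ZT18. Other promoters had means of 8.85 (SD 12.6, n = 15495), 9.40, 9.17 and 9.14. The medians were 9, 9, 10 and 10 against 4, 5, 4 and 4. The difference of means lay between 4.37 at ZT6 and 5.69 at ZT18, in the same direction in 4 of 4 lists, where an exact two-sided sign-flip permutation test gives p = 0.125, the smallest that 4 lists allow. Between 2.80% and 3.93% of dense promoters had no contact in a given list, against 9.83% or more of other promoters. Averaged over the lists, dense promoters had 1.57 times the contacts of other promoters.

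The number of contacts rose with crowding through all 10 density classes. The median promoter with 0 to 4 neighbours had 2.25 contacts, as the mean of the 4 lists. With 25 to 29 neighbours it had 6.00, with 30 to 34 it had 6.75, and with 50 or more it had 13.5. The rule draws no step in this series, since the 231 promoters with 29 neighbours had a median of 6.25 and the 229 with 30 had 6.5. Crowded promoters also lie on somewhat longer fragments, with a median of 6464 bp against 5817 bp, and carry 1.30 genes each against 1.18. Within each class of fragment length the difference was still there: the means were 15.6 against 9.75 contacts among the shortest baits, 14.04 against 9.32 among the middle ones and 13.6 against 8.32 among the longest.

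**Figure D1:**
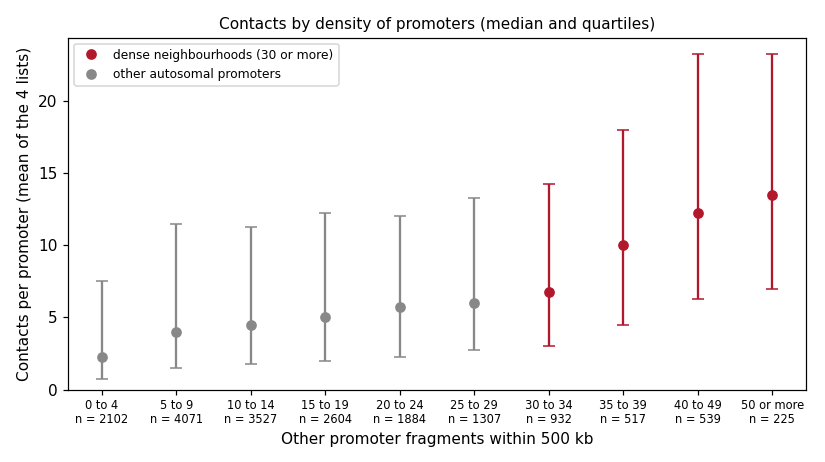
Contacts per promoter, as the mean of the 4 lists (vertical axis), by the number of other promoter fragments within 500 kb (horizontal axis, with n). Points are medians and bars run from the lower to the upper quartile, red for dense and grey for other promoters, and the medians climb from 2.25 to 13.5 while the quartiles overlap between neighbouring classes.

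Contacts of dense promoters often ended on another promoter. The share was 47.4% at ZT0 (95% Wilson interval 46.8 to 47.9) and 46.5%, 47.2% and 47.2% in the other lists. For other promoters it lay between 22.2% and 24.1%, and the difference was 23.1 to 24.2 percentage points in 4 of 4 lists (exact sign-flip p = 0.125, the smallest possible). Intervals here cover counting error only, and interactions of a promoter are not independent of each other. Between 41.7% and 42.8% of contacts of dense promoters joined them to another dense promoter.

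More promoters lie within reach of a dense promoter, so shares were also taken over the fragments that could have been contacted. Among fragments within 500 kb of a dense promoter, leaving out adjacent ones, 15.5% were baits, against 4.38% around other promoters. At ZT0, dense promoters contacted 16.5% of these baits and 3.42% of the other fragments, a ratio of 4.83 (interval 4.73 to 4.93). Other promoters contacted 15.3% of the baits and 2.31% of the other fragments, a ratio of 6.65 (6.57 to 6.73). Over the whole 500 kb, the preference for promoter fragments over other fragments was thus lower around dense promoters, in 4 of 4 lists (exact sign-flip p = 0.125). From 250 to 500 kb alone it was higher around dense promoters in 4 of 4 lists, with ratios of 7.86 against 7.20 at ZT0. A bait counts here only if it was listed as bait at some timepoint. Each bait thus had a contact by construction while other fragments need not, which raises the ratios of both groups.

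Distance separated these patterns. At ZT0 and under 25 kb, dense promoters contacted 39.8% of baits and 10.9% of other fragments, against 31.1% and 4.27% for other promoters. From 100 to 250 kb the shares were 20.3% and 4.63% against 18.9% and 3.36%. From 250 to 500 kb the order turned, with 6.39% and 0.813% against 7.51% and 1.04%. In each of the 4 lists dense promoters contacted more of what lay within 250 kb, whether promoter or not, and less of what lay from 250 to 500 kb. Over all 4 lists combined, the shares from 250 to 500 kb were 13.1% and 1.82% against 13.5% and 1.93%. Pairs of dense promoters at that distance were listed less often than pairs of other promoters in each of the 4 lists. Over all 4 lists combined these pairs were listed in 14.1% of cases against 13.9%, so for pairs the order did not hold there. Taking only pairs of dense promoters 50 to 250 kb apart, 24.1%, 22.3%, 24.4% and 24.7% of 16085 pairs were in the lists of ZT0, ZT6, ZT12 and ZT18. Among 40485 pairs of other promoters at that distance the shares were 20.8%, 20.4%, 21.7% and 21.4%. Among single lists the gap was smallest at ZT6, at 1.85 percentage points. Over all lists combined the gap was 4.18 points, and it shrank to 0.636 points when a score of at least 10 was asked for. Whether the caller's own background model, which is fitted over distance and promoter, treats crowded promoters alike was not tested.

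**Figure D2:**
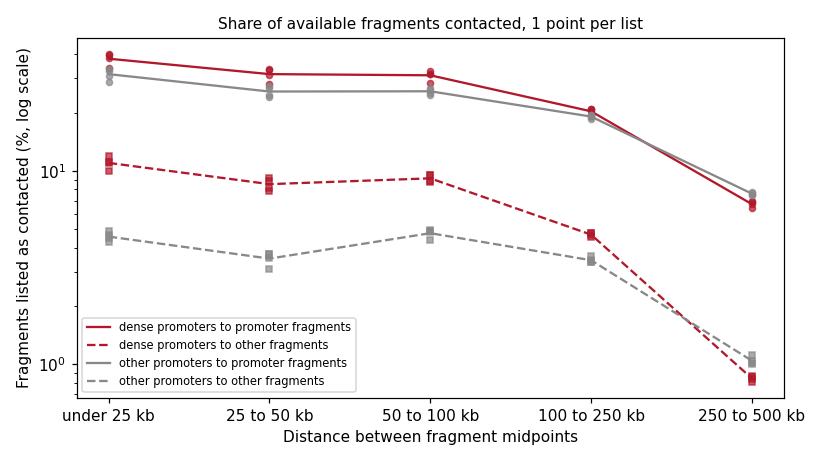
Share of fragments listed as contacted (percent, log scale) by distance between fragment midpoints, for dense (red) and other (grey) promoters, to promoter fragments (circles, solid lines) and to other fragments (squares, dashed lines). Each point is 1 list and lines join the means of the 4 lists; at ZT0 and under 25 kb dense promoters contacted 10.9% of other fragments against 4.27%, and from 250 to 500 kb the red lines lie under the grey.

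Contacts of dense promoters were shorter. The median distance was 119, 125, 119 and 117 kb in the lists of ZT0, ZT6, ZT12 and ZT18, against 154, 154, 145 and 147 kb for other promoters. It was shorter in 4 of 4 lists, with differences from -35.3 to -26.1 kb. Between 5.47% and 6.57% of contacts spanned more than 500 kb, against 6.14% to 7.08%. Each list held between 4 and 8 contacts of dense promoters with another chromosome. Between 88.9% and 89.5% of the contacts ended inside the span of the promoter's own neighbourhood.

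Contacts between dense promoters passed over many others, a count that the rule itself raises because it chose crowded stretches. Of 10300 distinct interactions between dense promoters of the same chromosome, the median skipped 7 baits, 36.2% skipped 10 or more, and 8.06% joined baits with none in between. Among 24493 interactions between other promoters the median was 2, with 7.39% and 19.99%. Linked through their contacts, between 1933 (87.3%) and 1982 (89.6%) of the dense promoters were joined to at least 1 other in a list. The largest connected group held 108, 109, 121 and 112 promoters from ZT0 to ZT18, on chromosomes 11, 11, 17 and 7. At ZT12 and ZT18 it spanned 2 neighbourhoods. On chromosomes 17 and 7, linked neighbourhoods were joined by 1 distinct interaction each, none of them listed at all 4 timepoints.

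Neighbourhoods differed widely from each other. Among the 49 with 10 or more promoters, the median number of contacts, as the mean of the 4 lists, ran from 0.625 to 31.2. The highest was the histone neighbourhood of chromosome 13 from 23460117 to 24084062, with 34 promoters. It was followed by the neighbourhood of Cdca3 on chromosome 6, at 23.6, and that of Ube2s on chromosome 7, at 22.9. The lowest was an olfactory receptor neighbourhood on chromosome 11, where 8 of 10 promoters carry receptor genes. The largest, with 180 promoters, had a median of 10.4. Differences between neighbourhoods accounted for 21.4% of the variance of log2 contacts, so most of the spread lay among promoters of the same neighbourhood. The 221 most contacted dense promoters, 31.8 contacts or more each, held 36.2% of all contacts and came from 39 neighbourhoods.

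**Figure D3:**
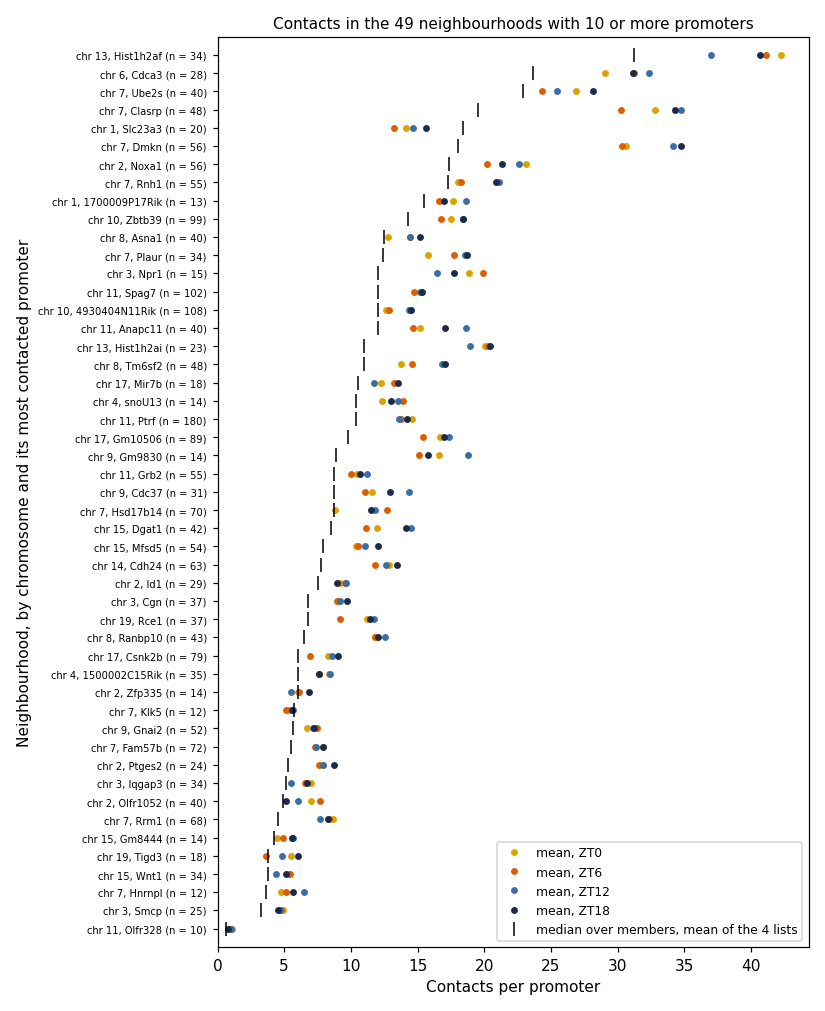
Contacts per promoter (horizontal axis) in the 49 neighbourhoods with 10 or more dense promoters, named by chromosome and most contacted promoter. Coloured points are the mean over promoters in each list and black ticks are the median promoter by the mean of the 4 lists, which runs from 0.625 in the olfactory receptor neighbourhood at the bottom to 31.2 in the histone neighbourhood at the top.

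The most contacted dense promoter of all was the fragment from which the histone genes Hist1h2ai and Hist1h2bl start in opposite directions, at chr13:21807357-21809484. From ZT0 to ZT18 it had 156, 164, 150 and 164 contacts. Among 202 distinct contacts, 122 were listed at all 4 timepoints. The fragment of Dmkn, which encodes dermokine, a secreted protein of the epidermis, had 123, 134, 140 and 153 contacts, rising from ZT0 to ZT18 as labelled. Fam166b had 125, 135, 135 and 143. Clasrp, an SR-related splicing factor gene, had 115, 110, 135 and 123. Tomm40, which encodes the channel of the mitochondrial outer membrane translocase, had 129, 137, 102 and 111, highest at ZT6. Of the 165 distinct contacts of Fam166b only 4 reached a dense promoter, while 40 of 142 did so for Clasrp. At the other end of the range, 178 dense promoters had no contact in 1 or more of the lists.

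In each of the 10 largest neighbourhoods the most contacted promoter was named, so its place above the median of its neighbours follows from that choice. On chromosome 11, Ptrf, the gene of the caveolar protein cavin-1, had 75, 86, 86 and 80 contacts at ZT0, ZT6, ZT12 and ZT18, and Spag7 had 59, 49, 55 and 46. On chromosome 10, Zbtb39, a zinc finger gene, had 77, 79, 74 and 74, and 4930404N11Rik had 34, 37, 50 and 47. Gm10506, a predicted gene on chromosome 17, had 83, 83, 89 and 87. In the major histocompatibility complex it was a fragment shared by Csnk2b, the regulatory subunit of casein kinase 2, and Gpank1, with 40, 31, 43 and 50 contacts. The others were Fam57b (mean of the 4 lists 46.8), Hsd17b14 (41.2) and Rrm1 (53.2) on chromosome 7 and Cdh24 (61.8) on chromosome 14. Rrm1, the large subunit of ribonucleotide reductase, sits beside a cluster of olfactory receptor genes, and 5 of its 70 distinct contacts reached a promoter. Its neighbourhood as a whole had a median of 4.50 contacts.

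Crowding alone did not fix the number of contacts. Krtap9-1, with 67 neighbours, had 14, 14, 10 and 10 contacts, the highest mean of the 8 fragments with that number. Gys1, the glycogen synthase gene of muscle, had 57 neighbours and 7, 16, 13 and 14 contacts, and Sgta had 54 neighbours and 16, 15, 25 and 13. By contrast 4930479M11Rik had 53 neighbours and 116, 115, 119 and 126 contacts, and 6030455H03Rik had 55 and 42, 38, 35 and 37.

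The histone genes formed the clearest long-range pattern. The replication-dependent histone genes of the Hist1 cluster are transcribed in S phase and are known to gather at nuclear bodies. They lie in a pair of dense neighbourhoods of chromosome 13, with 23 and 34 promoters, of which 6 and 20 carry a histone gene. Of 167 distinct interactions between dense promoters of different neighbourhoods of the same chromosome, 161 joined this pair, across 1586 to 2304 kb. From ZT0 to ZT18 they numbered 108, 112, 92 and 120. Where both ends carried a histone gene, 87 of the 120 possible pairs were listed (72.5%), and 50 of the 87 were listed at all 4 timepoints. With a histone gene at a single end it was 63 of 424 possible pairs (14.9%), and with none it was 11 of 238 (4.62%). The 26 histone promoters of the pair had a median of 34.2 contacts and the 31 others of 18.8, as the mean of the 4 lists. Of all interactions over 100 kb between dense promoters, the one with the highest score in its lowest list joined Hist1h2ai/Hist1h2bl with Hist1h4d, 1865 kb apart with 31 baits in between. It scored 70.4, 68.8, 63.1 and 66.8 at ZT0, ZT6, ZT12 and ZT18. The longest between dense promoters listed at all 4 timepoints joined the same fragment with that of Hist1h1a, Hist1h3a and Hist1h4a, 2046 kb away, at 37.0, 23.3, 24.3 and 33.0. Copies of histone, keratin and olfactory receptor genes are similar in sequence, and the part that reads shared between copies may have in these values was not tested.

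Elsewhere the strongest interactions over 100 kb joined unrelated genes. Plec, the gene of the cytoskeletal linker plectin, and Gpaa1, of the enzyme that attaches GPI anchors, lie 104 kb apart on chromosome 15 and scored 57.7, 54.1, 60.8 and 48.6 at ZT0, ZT6, ZT12 and ZT18. H13, a signal peptide peptidase gene, and Bcl2l1, of the survival factor Bcl-xL, 169 kb apart on chromosome 2, scored 57.2, 45.4, 70.1 and 62.0. Zbtb39 and the retinol dehydrogenase gene Rdh7, 144 kb apart on chromosome 10, scored 44.7, 42.9, 47.0 and 52.2. Tekt4, of a sperm tail filament protein, and a U6 small nuclear RNA gene, 219 kb apart on chromosome 17, scored 43.4, 37.7, 47.8 and 41.3. Each of these passed the list minimum of 5 many times over at all 4 timepoints. After the histones, the longest interaction listed at all 4 timepoints was on chromosome 10, between the fragments of Gm16517 and of Ankrd24 and Sirt6, 1960 kb apart with 104 baits in between. Its scores were lower, at 7.97, 7.15, 10.4 and 9.04. On chromosome 7, the fragment of Akt1s1 and Tbc1d17 contacted that of Rpl18 and Sphk2 over 868 kb, and Irf2bp1 contacted Cblc over 790 kb. On chromosome 11, Krt42 contacted Krt12, both type I keratin genes, over 843 kb at scores of 6.68, 5.58, 6.16 and 7.89.

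Gene families differed in how far they lay in dense neighbourhoods. Of all 21235 genes starting on an autosomal bait, 2885 (13.6%) started on a dense promoter, and 13 of 20 gene lists were above that share. Zinc finger Zfp genes, among the 13, were level with it at 37 of 272 (13.6%). For protein-coding genes alone the share was 14.7%. Among replication histones it was 50 of 58 genes (86.2%), among keratins and keratin-associated proteins 66 of 78 (84.6%) and among class I and II H2 genes 10 of 18 (55.6%). Lists of cell machinery were also above the share of all genes, with 11 of 39 proteasome subunits (28.2%), 19 of 79 respiratory chain genes (24.1%) and 17 of 72 ribosomal proteins (23.6%). The proteasome genes on dense promoters include subunits of the immunoproteasome, such as Psmb9 and Psmb10. Olfactory receptors gave 141 of 608 (23.2%). Families known for liver function were divided: 8 of 17 apolipoproteins (47.1%) but 1 of 42 cytochrome P450 genes of families 1 to 4 (2.38%), 4 of 40 glucuronosyl-, sulfo- and glutathione transferases (10%) and none of 35 serpins. None of 39 Hox genes started on a dense promoter. Tandem families move into the rule together, since their own members count as neighbours. The histone share rests on the minimum of 30: with 40 or more neighbours it was 0 of 58, while keratins kept 54 of 78 (69.2%). Olfactory receptors then lay below all genes, at 3.78% against 4.79%.

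**Figure D4:**
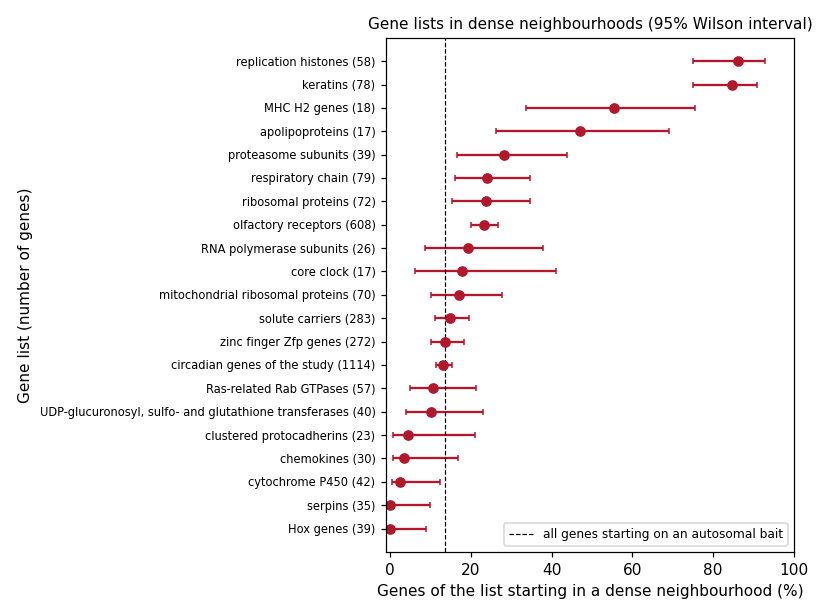
Share of the genes of each list that start on a dense promoter (percent, horizontal axis), with 95% Wilson intervals and the number of genes in each list. The dashed line is the share of all genes on autosomal baits, 13.6%, and histones and keratins lie near 85% while serpins and Hox genes lie at 0.

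Within a family, promoters in dense neighbourhoods often had more contacts than those elsewhere, but not in all. Values here are medians of the mean of the 4 lists. Keratin promoters had 11.5 contacts in dense neighbourhoods (n = 66) and 2.88 elsewhere (n = 12). Proteasome promoters had 16.5 (n = 10) and 5.50 (n = 27), and ribosomal protein promoters 8.75 (n = 17) and 4.00 (n = 55). Olfactory receptor promoters had few contacts in both places, 3.25 (n = 137) and 1.75 (n = 460). H2 promoters had 2.38 (n = 10) and 2.25 (n = 8), and apolipoprotein promoters had fewer in dense neighbourhoods, 14 (n = 7) against 19.5 (n = 8). The ranges overlapped in each of these families.

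Single members show the spread. The examples in this paragraph were chosen after their values were seen, as high and low ends of their lists. Krt33a, a hair keratin gene, had 73, 72, 66 and 61 contacts, and Krt4, of the lining of the mouth and oesophagus, had 0, 0, 1 and 3. Psmb10, a subunit of the immunoproteasome, had 39, 44, 52 and 45, while Psmb9, another, shares a fragment with Tap1 inside the major histocompatibility complex and had 1 in each list. Apoe, whose product carries lipids in plasma, had 21, 10, 24 and 25, lowest at ZT6. Cyp2e1, known for alcohol metabolism in liver, had 2, 5, 3 and 2. Cyp27a1, a bile acid synthesis gene of a P450 family not on the list, is also on a dense promoter and had 2, 2, 4 and 4. Olfr1052 had 35, 37, 34 and 31, far above the median of its family.

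The core clock genes on dense promoters were Per1, Nr1d1 and Dbp, 3 of 17 on the list. Per1, a repressor of the clock, had 5, 7, 19 and 12 contacts at ZT0, ZT6, ZT12 and ZT18. Nr1d1, which encodes the nuclear receptor REV-ERB alpha, had 6, 10, 9 and 8. Dbp, a PAR bZIP activator of clock output genes, had 11, 25, 24 and 19. ZT0 was the lowest list for each of the 3, and the highest was ZT6 for Nr1d1 and Dbp and ZT12 for Per1. Contacts of Dbp reached far and mostly promoters: 23 of 37 distinct contacts ended on a bait and their median distance was 574 kb, the longest being 1208 kb. Its highest score, 14.7 at ZT12, was with Fgf21, the gene of a liver hormone of fasting, 89.8 kb away, which scored 8.99, 11.6, 14.7 and 11.3 over the lists. Dbp also contacted the fragment of Med25 and Ptov1, 823 kb away, at 8.72, 7.49, 7.54 and 7.14. Per1 contacted Kdm6b, a histone demethylase gene, at 319 kb with scores of 6.01, 8.97 and 6.18 at ZT6, ZT12 and ZT18, and it was not listed at ZT0. Its sole promoter contact in all 4 lists was Tmem107, 24.05 kb away. Nr1d1 contacted Thra, which overlaps it on the other strand, at 34.1 kb in each list (8.06, 6.49, 8.20 and 6.11), and SNORD124 at 63.9 kb with 15.5, 14.2, 18.8 and 11.4. Partners of these genes were picked by score after their values were seen.

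Genes that the study called circadian were about as frequent on dense promoters as other genes: 146 of 1114 (13.1%, interval 11.2 to 15.2). Split by time of peak RNA, the share was 38 of 196 at ZT0 (19.4%, 14.46 to 25.5), 39 of 295 at ZT6 (13.2%, 9.82 to 17.6), 40 of 439 at ZT12 (9.11%, 6.76 to 12.2) and 29 of 184 at ZT18 (15.8%, 11.2 to 21.7). Beside the 13.6% of all genes, the interval for ZT0 lay above, that for ZT12 lay below, and those for ZT6 and ZT18 held it. Beside the 14.7% of protein-coding genes, the interval for ZT0 held the share as well, and only that for ZT12 lay apart, below it. The difference between peak times was not tested. The study chose these genes on RNA of the same experiment.

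Contacts of dense promoters were kept over the day about as often as those of other promoters. Of 40629 distinct interactions with a dense promoter, 13420 were listed at all 4 timepoints (33.0%, interval 32.6 to 33.5), against 66109 of 203332 without (32.5%, 32.3 to 32.7). Interactions between dense promoters were listed at all 4 in 37.6%, and those between other promoters in 37.9%. Persistence followed the score: where the highest score lay from 5 to below 6, 0.828% of interactions with a dense promoter were in all 4 lists, from 8 to below 10 it was 52.9%, and at 15 or more 97.7%. In the same classes interactions without a dense promoter gave 0.784%, 52.7% and 98.7%. The classes were cut on the same scores that decide, at a minimum of 5, whether a pair is listed. A rise over the classes is thus partly built in, and the classes serve to compare the groups at a like score.

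Over the lists, dense promoters held the smallest share of contacts at ZT6. Their contacts numbered 31201, 30480, 32445 and 32829 from ZT0 to ZT18, so ZT6 was the lowest. Other promoters had 137062, 145682, 142042 and 141674, with ZT6 the highest. The share of all autosomal contacts held by dense promoters was 18.5%, 17.3%, 18.6% and 18.8%. Relative to its mean over the lists, the share at ZT6 was 1.07 for promoters with 0 to 4 neighbours, 0.958 with 25 to 29, 0.963 with 30 to 34 and 0.908 with 40 to 49. The densest class, with 50 or more, stood at 0.958, level with 25 to 29, so the fall did not run on to the end. It ran the same way in many neighbourhoods, since after division by the list total ZT6 was the lowest list in 30 of 58 and the highest in 6. It differed with distance. Under 50 kb, dense promoters had 6529, 5941, 6752 and 7048 contacts, lowest at ZT6, and other promoters had 19359, 20329, 21753 and 22146, lowest at ZT0. Over 500 kb ZT6 was the highest list for both groups. Dense promoters had 1708, 2003, 1790 and 1859 contacts at that distance, and other promoters had 9130, 10307, 8719 and 8949.

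**Figure D5:**
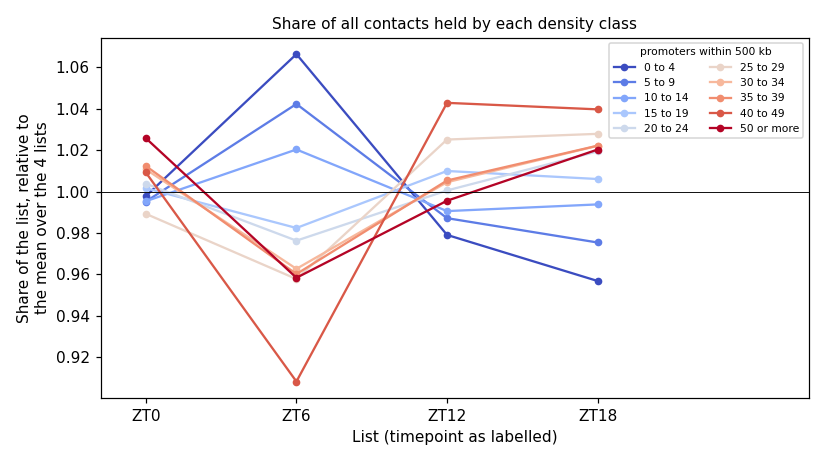
Share of all autosomal contacts held by each density class in each list, divided by that class's mean share over the 4 lists (vertical axis), by timepoint as labelled (horizontal axis). Colours run from blue for few to red for many other promoters within 500 kb; at ZT6 the class with 0 to 4 stands at 1.07 the class with 40 to 49 at 0.908 and the class with 50 or more at 0.958.

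The study's own overview of list sizes matches the list labelled ZT6 to ZT18, ZT12 to ZT6 and ZT18 to ZT12. The labels were followed here. Under the other order the list poor in contacts of dense promoters would be that of ZT18, and Nr1d1 and Dbp, highest in the list labelled ZT6, would be highest at ZT18. Other readings by timepoint would change as well. Tomm40 would be highest and Apoe lowest at ZT18, Per1 would be highest at ZT6, and Dmkn would be highest at ZT12.

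Single promoters were then compared between timepoints 12 h apart, after dividing by the list total, among those with a mean of 10 or more contacts. A promoter was called when its value was at least 1.5 times that of the other timepoint. At ZT18 over ZT6, 134 of 1060 dense promoters were called (12.6%), where 7.42% of all autosomal promoters tested were called. At ZT6 over ZT18 it was 50 (4.72%), beside 6.96% of all. At ZT12 over ZT0 it was 102 (9.62%), beside 8.1%, and at ZT0 over ZT12 it was 73 (6.89%), beside 6.62%. The shares for ZT6 and ZT18 were thus further from the background than those for ZT0 and ZT12, in lists that have no replicate and among promoters that share neighbourhoods and contacts. Under the other order of the lists both directions turned: ZT18 over ZT6 was called for 44 (4.15%, against 6.98% of other promoters) and ZT6 over ZT18 for 124 (11.7%, against 5.96%). Of 2213 dense promoters, 354 (15.996%) had their highest value at ZT6, against 22.02% of other promoters. Each timepoint is 1 list, and a difference between lists cannot be told apart from a difference between timepoints.

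The dense promoters with the largest ratio of highest to lowest list, among 663 with 20 or more contacts in the highest, showed no common timepoint. Aldh3b2, an aldehyde dehydrogenase gene, had 13, 3, 20 and 14 contacts. Map3k12, a kinase gene, had 11, 14, 4 and 20, and the fragment of Mepce, the 7SK capping enzyme, and Zcwpw1 had 18, 16, 4 and 20. Lamb2, a laminin gene, had 6, 28, 9 and 12, and Lonp1, of the mitochondrial Lon protease, had 7, 27, 9 and 6. ZT6 was thus the lowest list for Aldh3b2 and the highest for Lamb2 and Lonp1, and ZT12 was the lowest for the other two. Of the 46 distinct contacts of Lamb2, 39 were in a single list.

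In sequence, dense promoters were not richer in CpG at the gene start. Over the 250 bases before the start of protein-coding genes, G+C averaged 55.3% (SD 10.2, n = 2422) for dense promoters and 56.4% (SD 11.6, n = 14029) for other promoters. The ratio of observed to expected CpG had a median of 0.513 against 0.596. Leaving out olfactory receptors, whose dense members had a mean G+C of 34.9%, gave 56.6% and 57.2%. Over whole bait fragments the order of G+C turned, with a mean of 49.7% (SD 5.43) against 47.1% (SD 5.63). The ratio of observed to expected CpG stayed lower there, at 0.301 against 0.319. Short motifs were searched on both strands of the windows. The GC box GGGCGG was in 42.6% of dense windows (45.0% of all), the CCAAT box CCAAT in 36.6% (34.2%), the TATA box TATAAA in 12.0% (10.4%), the E-box CACGTG in 7.10% (7.18%) and the ETS core CCGGAAG in 7.68% (9.50%). AGGTCA, a core recognised by ROR and other nuclear receptors, was in 12.0% (12.1%). Among the printed clock windows, that of Per1 holds 1 CACGTG, 150 bases before the start, and those of Dbp and Nr1d1 hold none in these letters. Dense promoters with a ratio of observed to expected CpG over 0.6 had a median of 10.6 contacts (n = 874), and those up to 0.6 had 8.25 (n = 1148). Among other promoters the medians were 5.50 (n = 6217) and 4.00 (n = 6493).

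The fragments contacted by dense promoters that are not baits were often genic. Of 7588 such fragments, 3502 (46.2%) overlapped an annotated exon, 21.3% lay within a gene without touching an exon, and 32.6% lay outside genes. For other promoters the shares were 29.5%, 32.1% and 38.4% of 104368. The surroundings differed as well: of all fragments within 500 kb that are not baits, 36.2% overlapped an exon around dense promoters and 17.2% around other promoters.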

How the data were processed

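Promoter Capture Hi-C was measured in mouse liver at 4 timepoints. According to the study's methods, the authors processed reads with HiCUP and called interactions with CHiCAGO, and the labels give the build as mm9. How the pools of a timepoint were combined into its list is not given in the sources used here. The deposited values are CHiCAGO scores of 5 or more, 1 per fragment pair and timepoint. A pair just under this minimum is absent from a list, so absence is no measurement, and the number of listed pairs also depends on sequencing depth.

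The mm9 genome was cut at HindIII sites into 823373 fragments on chromosomes 1 to 19, X and Y, and of 129887 fragments in the lists 129886 had the same ends as such a fragment. The remaining one is mitochondrial and was left out. Pairs were treated as unordered, since none of the 247177 was listed in both directions. A bait is a fragment in the bait column of any list, and a bait never listed is not counted as a neighbour. Genes were placed by their annotated start (GENCODE vM1, same build). Available fragments exclude those adjacent to the promoter and those shorter than 142 bp, the shortest listed. Medians, shares, Wilson intervals at 95% and exact sign-flip permutation tests over the 4 lists were computed with pandas 2.3.3, numpy 2.4.6 and scipy 1.17.1 in Python 3.11.15, and the counting functions were tested on simulated data. Lists share promoters and pipeline, so the sign-flip test treats them as 4 values and no more.

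The members and gene lists were chosen with earlier results of these data known. Named promoters are the most contacted of each of the 10 largest neighbourhoods, the 5 with most neighbours (1 per neighbourhood, ties going to the higher mean of contacts), the 5 with most contacts, the 5 with the largest ratio between lists among those with 20 or more contacts in the highest, the core clock genes, the 5 interactions over 100 kb between members with the highest lowest score (1 per neighbourhood), and the 5 longest of those listed at all 4 timepoints (1 per pair of neighbourhoods). Baits are named by the protein-coding genes starting on them, or by other genes where there is none. Psmc3ip, which is not a proteasome subunit, was taken out of that list after its values were seen. Alternatives were a score of 10 or more, 40 or more neighbours, leaving out gene family clusters, the bait column alone, classes of bait length and of distance, the other order of the lists, raw numbers, and whole bait fragments in place of the windows.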

Additional observations from a re-analysis of the deposited data

Results flagged for a closer look

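From ZT0 to ZT6 the contacts of dense promoters changed by -721 and those of other autosomal promoters by 8620. These values stand out because the groups moved in opposite directions. That holds for the lists as labelled. Under the other order of the lists, ZT6 would be the list labelled ZT12, and both groups would rise from ZT0. Dense promoters had 32445 contacts in that list against 31201 at ZT0, and other promoters had 142042 against 137062. Each timepoint is 1 list, and the difference between the groups was not tested.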

How the results depend on the processing

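No paired analysis was possible because each timepoint is a single list for all its pools, and for the same reason no replicate could be left out. In the main setting dense promoters had 1.57 times the contacts of other promoters. The ratio was 1.92 with 40 or more neighbours and 1.38 from the bait column alone. The difference in promoter-promoter share, 23.2 percentage points over all distinct contacts, was 22.1 without gene family clusters (histones, Hox, H2, olfactory receptors, keratins, protocadherins, chemokines). The difference in median distance, -25.9 kb, was -40.7 kb at a score of 10 or more, -12.9 kb with 40 or more neighbours and -33.6 kb without family clusters. The difference in the share listed at all 4 timepoints, 0.518 points, turned to -0.883 at a score of 10 or more and -0.187 with 40 or more neighbours, so it has no stable direction. The ratio of promoter to other fragments, 4.37 over all lists, was 6.05, 3.58 and 4.06 under these 3 settings. The difference in listed promoter pairs from 50 to 250 kb, 4.18 points, was 0.636, 7.99 and 6.30, and it was 7.24 from 50 to 100 kb and 3.09 from 100 to 250 kb. For promoters called between timepoints, values are dense minus other promoters. ZT18 over ZT6, 6.48 points, was 12.1 at a score of 10 or more and -2.83 under the other order of the lists. ZT6 over ZT18, -2.79 points, was -4.78 and 5.74. ZT0 over ZT12, 0.335 points, was 4.00 at a score of 10 or more. The difference in G+C, -1.09 points in the windows, was 2.58 over whole baits. Of 20 gene lists, 13 were above the share of all genes at 30 or more neighbours and 9 at 40 or more, and these 9 were among the 13. Replication histones went from 50 of 58 genes to 0. Causes were not tested. List totals rest on depth that was not analysed here, and a score minimum limits what absence from a list can show.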
